A study of Mus musculus with 6 samples.

Results

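Cones are the photoreceptors of daylight and colour vision, and they turn light into an electrical signal with a protein cascade of their own. The cone phototransduction genes described here are the 10 genes Opn1sw, Opn1mw, Gnat2, Gnb3, Gngt2, Pde6c, Pde6h, Cnga3, Cngb3 and Arr3, which were chosen by their role in the cascade, with earlier results of these data known. All 10 were found among the 55450 genes of the deposited table, and all 10 were tested. RNA of whole retina was sequenced in 6 libraries of C57BL/6 mice aged 8 weeks. The labels name 3 libraries Myrf-kd, from mice the series calls Myrf +/−, and 3 wild type (WT), and they list no other allele or agent. Neither the altered stretch of Myrf nor the number of animals is given in the labels, so the p-values reflect the spread among these 6 libraries, which could be technical in part.

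In a cone, light activates an opsin (Opn1sw for short wavelengths, Opn1mw for middle wavelengths), which switches on the G protein transducin. Transducin frees the phosphodiesterase from its inhibitory subunit, cyclic GMP falls, and the cyclic nucleotide-gated channel closes. Cone arrestin then helps to silence the opsin. Rods use a parallel set of genes for most of these steps. In mice many cones hold both opsins, with Opn1sw prevailing in the ventral retina and Opn1mw in the dorsal retina.

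The upstream sequences of the 2 opsin genes and of the cone arrestin gene Arr3 are shown because the ratio of the opsins is compared below and Opn1sw and Arr3 gave the highest and the lowest estimate of the 10 genes. They come from RefSeq on GRCm38.p6, which had an upstream window for 6 of the 10 genes. Opn1sw is shown for chr6:29380514-29380663 (minus strand), Opn1mw for chrX:74127314-74127463 (plus strand) and Arr3 for chrX:100605347-100605496 (plus strand). Each run is 150 bases long, is written 5′ to 3′, ends 1 to 3 bases before the start site, and holds no annotated exon. Capitals mark TAATC, a core, shortened after the windows were seen, recognised by the photoreceptor factors CRX and OTX2, and AGGTCA, a half-site of nuclear receptors, on either strand (TGACCT is its reverse complement).
Opn1sw: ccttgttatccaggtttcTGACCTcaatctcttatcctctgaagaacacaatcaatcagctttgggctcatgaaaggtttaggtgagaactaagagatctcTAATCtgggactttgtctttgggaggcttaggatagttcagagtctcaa
Opn1mw: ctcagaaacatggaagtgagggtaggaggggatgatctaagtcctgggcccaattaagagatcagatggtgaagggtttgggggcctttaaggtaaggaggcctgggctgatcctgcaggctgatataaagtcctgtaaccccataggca
Arr3: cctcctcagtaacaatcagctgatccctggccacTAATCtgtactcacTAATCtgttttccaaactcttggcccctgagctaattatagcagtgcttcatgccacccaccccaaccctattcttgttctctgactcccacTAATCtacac
Over the 250 bases before the start site, Arr3 held TAATC 3 times, Opn1sw and Gnat2 once each, and the windows of Opn1mw, Cnga3 and Pde6h held none. The whole Gnat2 window, with its match, lay in annotated exons. Of 32851 windows of that length, 19.8% held TAATC or GATTA at least once and 0.554% held it 3 or more times. Opn1sw held AGGTCA or its reverse complement at 2 places, a sequence found in 14.0% of the windows, and the longer motif CAATTAG was in none of the 6 genes' windows and in 1.77% of all windows. A match is a description of the letters only.

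The 2 genotypes were compared after a look at the libraries themselves. Library totals ran from 50695091 count units in WT 2 to 70298511 in WT 3, with about 4 units per fragment. Xist and Y-linked genes mark Myrf-kd 3 and WT 3 as female and the other 4 libraries as male. Along the leading principal component, with 29.5% of the variance, Myrf-kd 3 lay at 37.1 and the other libraries between −17.3 and −2.27. Myrf, the altered gene, had FPKM values of 0.279, 0.382 and 0.351 in Myrf-kd 1, 2 and 3 and of 0.359, 0.397 and 0.463 in WT 1, 2 and 3, so the groups overlapped (ratio 0.819, edgeR adjusted p = 0.732). A sum over the whole gene can include reads from an altered copy and so does not check the labels. Of 13674 genes tested, 6 passed edgeR's quasi-likelihood test at an adjusted p under 0.05, a background share of 0.0439%. That count became 9 without Myrf-kd 2, 10 without Myrf-kd 1, WT 1 or WT 2, 13 without WT 3 and 16 without Myrf-kd 3.

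The cone genes spanned a wide range of levels, which are compared in FPKM, a value per length of the gene and per depth of the library. Opn1sw was highest, with a mean of 134.7 FPKM over the 6 libraries (range 119 to 157). Gnb3 followed, between 97.3 and 103 FPKM, then Arr3 at 78.3 (64.1 to 93.6), Gnat2 at 66.7 (62.4 to 70.2) and Opn1mw at 61.5 (51.6 to 67.6). Pde6c stood at 43.0 FPKM (37.2 to 47.4), Gngt2 at 25.2 (23.5 to 28.8) and Pde6h at 10.5 (9.30 to 11.9). The channel genes were lowest, Cngb3 at 3.98 FPKM (3.42 to 4.42) and Cnga3 at 3.58 (3.14 to 3.99). Arr3 and Gnat2 overlapped in range, as did Gnat2 and Opn1mw and the channel subunits Cngb3 and Cnga3, while the other neighbours in this order were apart in range.

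**Figure D1:**
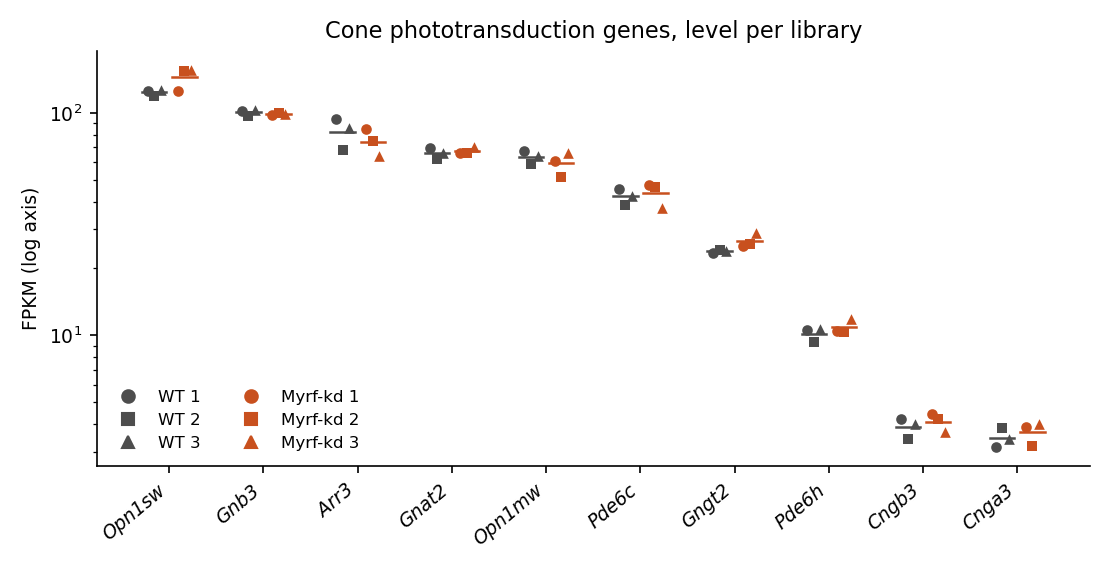
FPKM of each gene (log axis) in the 3 WT (grey) and 3 Myrf-kd (orange) libraries, with circles, squares and triangles for replicates 1, 2 and 3 and a line at each group's mean. The order of the genes is set by their mean over all 6 libraries, from Opn1sw at 134.7 FPKM to Cnga3 at 3.58 FPKM.

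The order depends on the length a gene is divided by. For all 10 genes the length behind the FPKM equalled the union of all annotated exons to within 2 bp, 7846 bp for Pde6h, the inhibitory subunit, and 1877 bp for Gngt2, a transducin gamma subunit. The principal protein-coding transcript of each gene was taken as the shortest of those annotated as principal. That of Gngt2 is 498 bp long, and per kilobase of that transcript Gngt2 had a mean of 95.1, which moved this gene up the order. Per principal transcript Opn1sw (142.9) and Gnb3 (142.6) were close, and Pde6h was at 13.9. A fold change between genotypes is not touched by this choice.

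Between the genotypes, 0 of the 10 cone genes passed (edgeR, adjusted p between 0.666 and 0.971), 7 had higher and 3 lower estimates in Myrf-kd, and every fitted difference was under 0.25 on the log2 scale. One gene, Opn1sw, had an unadjusted p under 0.05 by edgeR, and DESeq2 and limma also called 0 of the 10 with 1 at an unadjusted p under 0.05. The share of all tested genes with an unadjusted p under 0.05 was 7.48%. The median log2 fold change was 0.05 over the 10 genes and 0.00 over all genes tested, and the median size without sign was 0.07 and 0.11. The 95% intervals of the 10 ratios of Myrf-kd to WT ran from 0.711 at the lowest bound to 1.35 at the highest. Between 223 and 7874 fragments per library lay behind each gene. In RNA of whole retina, fewer cones and less RNA per cone cannot be told apart. In what follows single-library values are in CPM, the counts scaled to TMM-normalized library totals, and the ± values are SDs over 3 libraries.

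Opn1sw (ENSMUSG00000058831, chromosome 6, 29376671 to 29388468, minus strand, GRCm38), the short-wavelength opsin gene, was at 376, 453 and 464 CPM in the Myrf-kd libraries 1, 2 and 3 and at 369, 362 and 379 CPM in WT 1, 2 and 3. Myrf-kd 2 and Myrf-kd 3 lay above all WT libraries, while Myrf-kd 1 lay within the WT range, so the groups overlapped. Myrf-kd averaged 431 ± 48.2 CPM against 370.0 ± 8.26 CPM for WT. The fitted ratio was 1.16 (95% interval 1.00 to 1.35) and its log2 value 0.22 with an SE of 0.09, which missed the threshold (edgeR adjusted p = 0.666, unadjusted p = 0.0454). Under 20 other settings the log2 value ranged from 0.16 to 0.31 and the adjusted p from 0.509 to 0.923. Exons of Opn1sw share 397 bp, 15.5% of their total, with Calu on the opposite strand, and the labels give no handling of strand. Calu, a calcium-binding protein gene of the secretory pathway, was at 136, 143 and 228 CPM in the Myrf-kd libraries 1, 2 and 3 and at 219, 147 and 148 CPM in WT 1, 2 and 3. Calu was highest in Myrf-kd 3 and WT 1, of which Opn1sw was high in Myrf-kd 3 alone. The part of Calu reads in the Opn1sw values was not tested.

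Opn1mw (ENSMUSG00000031394, chromosome X, 74127464 to 74150760, plus strand), the middle-wavelength opsin gene, was at 111, 92.3 and 119 CPM in the Myrf-kd libraries 1, 2 and 3 and at 122, 109.9 and 117 CPM in WT 1, 2 and 3. Myrf-kd 2 was the lowest library and the other 5 lay between 109.9 and 122 CPM. The fitted ratio was 0.923 with a 95% interval from 0.779 to 1.09 (edgeR adjusted p = 0.782). Opn1mw lies on the X chromosome, and the female libraries Myrf-kd 3 and WT 3, at 119 and 117 CPM, were within the range of the male ones. Without Myrf-kd 2 the log2 fold change of −0.12 became −0.02, and without Myrf-kd 3 it became −0.20.

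The 2 opsin genes were then set against each other within each library, where the scaling of the library cancels. The ratio of Opn1sw to Opn1mw FPKM was 2.07, 3.00 and 2.37 in Myrf-kd 1, 2 and 3 and 1.85, 2.01 and 1.97 in WT 1, 2 and 3. All 3 Myrf-kd libraries lay above all 3 WT libraries, Myrf-kd 1 by a narrow margin and Myrf-kd 2 by the widest. The mean ratio was 2.48 ± 0.472 in Myrf-kd and 1.95 ± 0.0850 in WT (SD, n = 3 each), a difference of 0.34 on the log2 scale, or 1.26-fold. The exact permutation test, two-sided, returned p = 0.1, the smallest that this test can give with 3 libraries against 3. Without Myrf-kd 2 the log2 difference was 0.19, without Myrf-kd 1 it was 0.46, and in the male libraries alone, a comparison added after the data were seen, it was 0.37. In Myrf-kd 2 Opn1sw was above the WT range and Opn1mw below it, while in Myrf-kd 3 Opn1sw was above the WT range and Opn1mw within it.

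**Figure D2:**
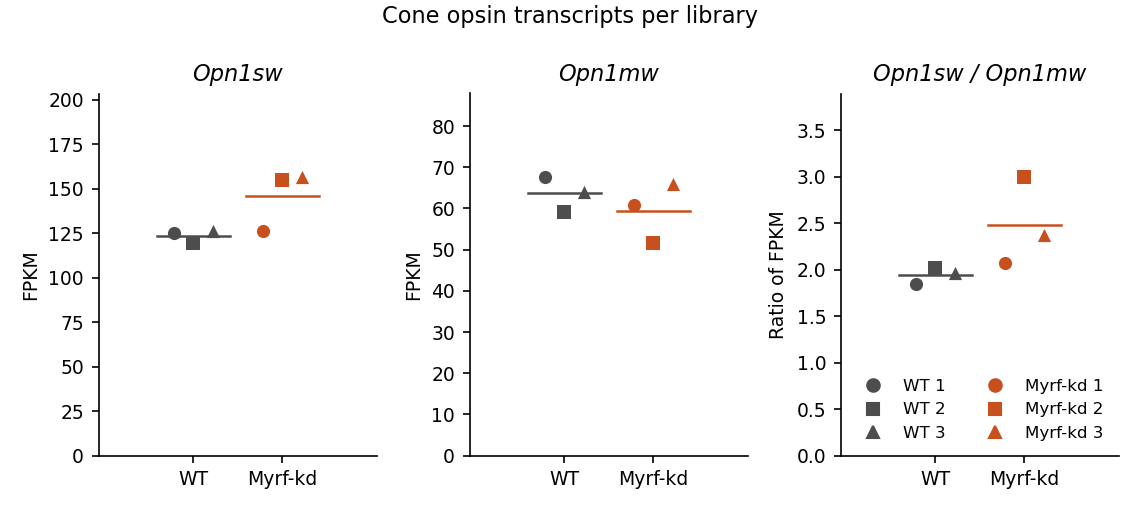
FPKM of Opn1sw (left), FPKM of Opn1mw (middle) and their ratio (right) in the WT (grey) and Myrf-kd (orange) libraries, with circles, squares and triangles for replicates 1, 2 and 3 and a line at each group's mean. The ratio was 1.85 to 2.01 in the WT libraries and 2.07 to 3.00 in the Myrf-kd libraries, while the single opsins overlapped between the groups.

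Because the opsins differ along the dorsal-ventral axis of the mouse retina, genes known for that axis are given beside the ratio. The summed FPKM of 7 dorsal genes was 42.3, 35.9 and 39.0 in Myrf-kd 1, 2 and 3 and 42.2, 44.1 and 42.9 in WT 1, 2 and 3, so Myrf-kd 1 lay with WT. The dorsal gene Aldh1a1, a retinoic acid synthesis enzyme, was at 15.3, 11.6 and 12.0 FPKM in Myrf-kd 1, 2 and 3 and at 14.5, 14.4 and 15.3 FPKM in WT 1, 2 and 3 (edgeR adjusted p = 0.703). Tbx2, a T-box factor of the dorsal eye, was at 16.05, 15.36 and 15.94 FPKM in Myrf-kd 1, 2 and 3 and at 16.9, 19.5 and 17.7 FPKM in WT 1, 2 and 3 (edgeR adjusted p = 0.666). The summed FPKM of 4 ventral genes was 20.5, 20.3 and 22.8 in Myrf-kd 1, 2 and 3 and 20.7, 21.5 and 21.5 in WT 1, 2 and 3. Vax2, a homeobox factor of the ventral retina, was at 16.1, 17.7 and 18.8 FPKM and at 16.8, 17.0 and 17.7 FPKM in the same libraries (edgeR adjusted p = 0.979). Of the 5 dorsal genes tested 2 had higher and 3 lower estimates with 0 passing (median log2 fold change −0.20). In 2 of the 5, Tbx2 and Tbx3, Myrf-kd was lower without overlap in CPM, against 14.6% of all genes not overlapping. By edgeR 1 of the 5, Tbx2, had an unadjusted p under 0.05, against 7.48% of all genes. Of the 2 ventral genes tested 1 was higher and 1 lower with 0 passing (median −0.18). Of these 2, 0 had an unadjusted p under 0.05 and 0 were without overlap. Aldh1a1, Tbx2 and Vax2 were picked from these lists after their values were seen. The log2 fold changes of all tested dorsal genes were −0.26 (Tbx3), −0.21 (Tbx2), −0.20 (Aldh1a1), 0.06 (Efnb2) and 0.07 (Efnb1). Those of the tested ventral genes were −0.37 (Ephb2) and 0.01 (Vax2). The library with the highest opsin ratio, Myrf-kd 2, had the lowest dorsal sum and also the lowest ventral sum. In that library the ventral gene Ephb2 was at 1.64 FPKM, against 2.80 to 3.96 FPKM in the others. Vax2 there, at 17.7 FPKM, lay within the WT range. The part of the dorsal and ventral genes in the opsin ratio was not tested.

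The 3 cone transducin subunits had fitted ratios between 0.974 and 1.10. Gnat2 (ENSMUSG00000009108, chromosome 3, 108092789 to 108101432, plus strand), the alpha subunit that carries the signal, was at 230.5, 226 and 244 CPM in the Myrf-kd libraries 1, 2 and 3 and at 239.6, 222 and 233 CPM in WT 1, 2 and 3. Its fitted ratio was 1.01 with a 95% interval from 0.914 to 1.11 (edgeR adjusted p = 0.971), and its groups overlapped. Gnb3 (ENSMUSG00000023439, chromosome 6, 124834240 to 124840275, minus strand), the beta subunit, which ON bipolar cells also use, was at 301, 303 and 303 CPM in the Myrf-kd libraries 1, 2 and 3 and at 311, 304 and 317 CPM in WT 1, 2 and 3. The Gnb3 groups did not overlap in CPM, by a margin of under 1 CPM, but did in FPKM, and the ratio was 0.974 (0.895 to 1.06, edgeR adjusted p = 0.851). Gngt2 (ENSMUSG00000038811, chromosome 11, 95837216 to 95845734, plus strand), the gamma subunit, was at 55.0, 55.7 and 62.7 CPM in the Myrf-kd libraries 1, 2 and 3 and at 50.9, 54.0 and 52.6 CPM in WT 1, 2 and 3. The Gngt2 groups did not overlap in CPM or FPKM, and the ratio was 1.10 (0.971 to 1.25, edgeR adjusted p = 0.701). Exons of Gngt2 share 234 bp, 12.5% of their total, with Abi3 on the opposite strand. In all, 2 of the 10 cone genes did not overlap between the groups in CPM, against 14.6% of all genes tested. Gngt2 was the 1 with higher values (7.13% of all genes) and Gnb3 the 1 with lower values (7.5% of all genes).

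The cone phosphodiesterase breaks down cyclic GMP. Pde6c (ENSMUSG00000024992, chromosome 19, 38132781 to 38183958, plus strand), its catalytic subunit, was at 164, 158 and 128 CPM in the Myrf-kd libraries 1, 2 and 3 and at 156, 136 and 148 CPM in WT 1, 2 and 3, so that Myrf-kd held both the highest and the lowest library. Its ratio was 1.02 (0.859 to 1.22, edgeR adjusted p = 0.946), and it lies 27.9 Mb from Myrf on the same chromosome. Pde6h (ENSMUSG00000064330, chromosome 6, 136923832 to 136968865, plus strand), the inhibitory subunit, was at 95.3, 92.9 and 108 CPM in the Myrf-kd libraries 1, 2 and 3 and at 95.6, 86.7 and 98.8 CPM in WT 1, 2 and 3, with Myrf-kd 3 highest. Its ratio was 1.05 (0.917 to 1.21, edgeR adjusted p = 0.818).

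The channel genes carried the fewest fragments of the 10, 223 to 389 per library. Cnga3 (ENSMUSG00000026114, chromosome 1, 37214434 to 37263384, plus strand), a subunit that binds cyclic GMP and helps to form the pore, was at 17.8, 14.5 and 18.3 CPM in the Myrf-kd libraries 1, 2 and 3 and at 14.4, 18.0 and 15.9 CPM in WT 1, 2 and 3. Its ratio was 1.05 (0.839 to 1.31, edgeR adjusted p = 0.907). Cngb3 (ENSMUSG00000056494, chromosome 4, 19280850 to 19510623, plus strand), the modulatory subunit, was at 24.2, 22.7 and 20.1 CPM in the Myrf-kd libraries 1, 2 and 3 and at 22.8, 19.1 and 22.0 CPM in WT 1, 2 and 3, with a ratio of 1.05 (0.869 to 1.27, edgeR adjusted p = 0.886). Both channel genes overlapped between the groups, and the wide intervals do not show that the genotypes are alike.

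Arr3 (ENSMUSG00000060890, chromosome X, 100605497 to 100618493, plus strand), the cone arrestin gene, varied most among the libraries. It was at 231, 201 and 175 CPM in the Myrf-kd libraries 1, 2 and 3 and at 254, 190.2 and 236 CPM in WT 1, 2 and 3, so that its highest library was 1.45 times its lowest. Myrf-kd 3 and WT 2 were the lowest of the 6, 1 in each group. Arr3 is X-linked too, and of the female libraries Myrf-kd 3 lay below all 4 male libraries while WT 3 lay within their range. The fitted ratio was 0.893 (95% interval 0.711 to 1.12, edgeR adjusted p = 0.773), or −0.16 on the log2 scale with an SE of 0.14. Gnb3 varied least, its highest library being 1.05 times its lowest.

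**Figure D3:**
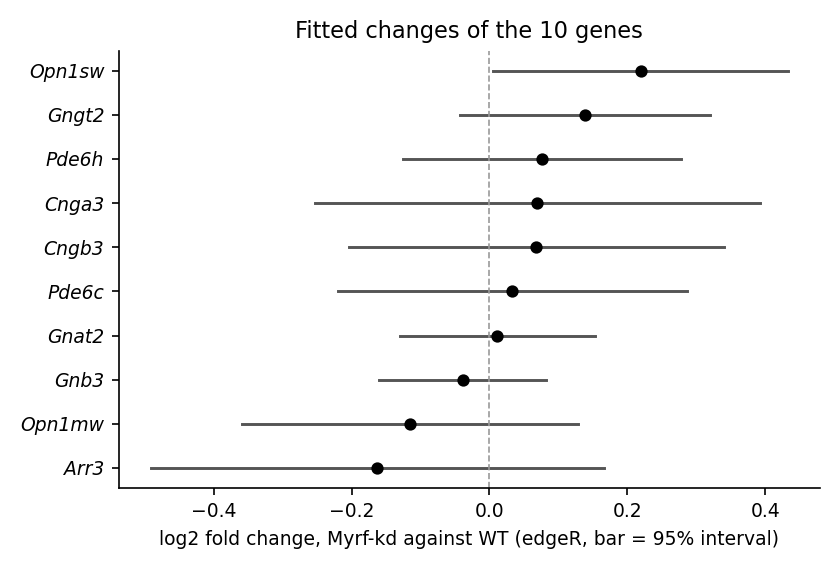
Fitted log2 fold change of Myrf-kd against WT for each of the 10 genes (points, edgeR) with its 95% interval (bars), and a dashed line at no change. Only the interval of Opn1sw lies above 0, from a ratio of 1.00 to 1.35, and Arr3 has the lowest estimate, at −0.16.

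The 10 genes did not move as a block from library to library. Myrf-kd 3 was the highest library for 5 genes (Opn1sw, Gnat2, Gngt2, Pde6h and Cnga3) and the lowest for 2 (Pde6c and Arr3). WT 2, the shallowest library, was the lowest for 4 genes (Opn1sw, Gnat2, Pde6h and Cngb3). Averaged over the 10 genes, log2 CPM centred on each gene's own mean was 0.04, −0.03 and 0.03 in Myrf-kd 1, 2 and 3 and 0.02, −0.07 and 0.02 in WT 1, 2 and 3, so the groups overlapped. The coefficient of variation of the opsins in WT was 2.23% for Opn1sw and 5.23% for Opn1mw, against 11.2% and 12.9% in Myrf-kd. This was not particular to the opsins. Gngt2 and Pde6c were at 2.99% and 7.00% in WT against 7.42% and 12.8% in Myrf-kd, and the rod gene Sag at 6.14% against 18.9%. Gnb3 and Arr3 went the other way, at 2.03% and 14.5% in WT against 0.463% and 13.9% in Myrf-kd.

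**Figure D4:**
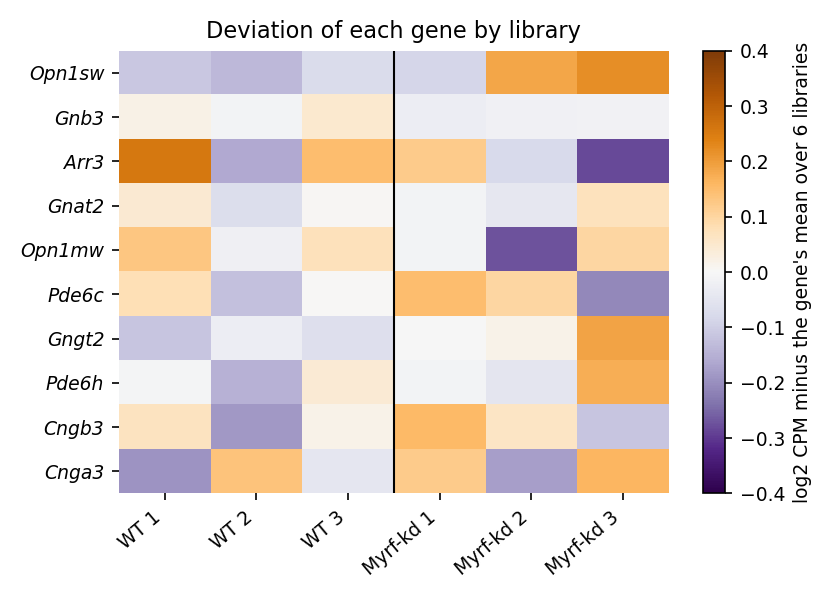
Deviation of each gene (rows) in each library (columns, WT left of the line and Myrf-kd right of it), as log2 CPM minus the gene's mean over the 6 libraries, with orange for higher and purple for lower. Opn1sw is high in Myrf-kd 2 and 3, Opn1mw is low in Myrf-kd 2, and Arr3 and Pde6c are low in Myrf-kd 3 while Gngt2 and Pde6h are high there.

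The 8 cone genes other than the opsins were also set against the rod gene that does the same step, Pde6c against both rod catalytic subunits. Within a library this sets cone against rod transcripts, except that ON bipolar cells also use Gnb3 and other cells also use Gnb1. Over these 9 pairs the ratio had a higher estimate in Myrf-kd in 7 and a lower one in 2, the groups overlapped in all 9, and exact two-sided permutation tests gave an adjusted p of 0.700 for every pair (Benjamini-Hochberg over 9 pairs). Gnat2 was at 2.13% ± 0.130 of its rod paralog Gnat1 in Myrf-kd and at 2.04% ± 0.146 in WT, in FPKM (SD, n = 3 each). Pde6c was at 5.68% ± 0.371 of Pde6a in Myrf-kd and 5.48% ± 0.549 in WT, and at 6.94% ± 0.775 and 6.48% ± 0.751 of Pde6b, the other rod catalytic subunit. Pde6h was at 2.09% ± 0.10002 of Pde6g in Myrf-kd and 2.23% ± 0.225 in WT. The G protein subunits Gnb3 and Gngt2 stood nearer to their rod paralogs, Gnb3 at 12.5% ± 1.15 of Gnb1 in Myrf-kd and 12.9% ± 0.634 in WT, where Gnb1 is also used by other cells, and Gngt2 at 13.4% ± 1.31 of Gngt1 and 12.3% ± 0.474. Cnga3 was at 6.81% ± 0.833 of Cnga1 in Myrf-kd and 6.24% ± 0.415 in WT, Cngb3 at 4.48% ± 0.103 of Cngb1 and 4.19% ± 0.565, and Arr3 at 14.6% ± 1.41 of Sag and 13.9% ± 2.56. These levels depend on the length used. Per kilobase of the shortest principal protein-coding transcript, a length tried after the data were seen, 4 of the 9 WT percents moved by more than 1.5 times. Arr3 then stood at 4.63% of Sag, Pde6h at 1.15% of Pde6g, Pde6c at 4.14% of Pde6b and Cngb3 at 2.77% of Cngb1, and Gngt2, at 15.7% of Gngt1, was the highest. The comparison of the genotypes within a pair is not touched by the length. The summed FPKM of the 8 cone genes other than the opsins came to 4.83%, 5.08% and 4.78% of the summed FPKM of these 9 rod genes in Myrf-kd 1, 2 and 3 and to 5.20%, 4.38% and 5.03% in WT 1, 2 and 3, so the groups overlapped. Gnb3, which is not limited to cones, was the largest part of that cone sum, at 97.3 to 103 FPKM.

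**Figure D5:**
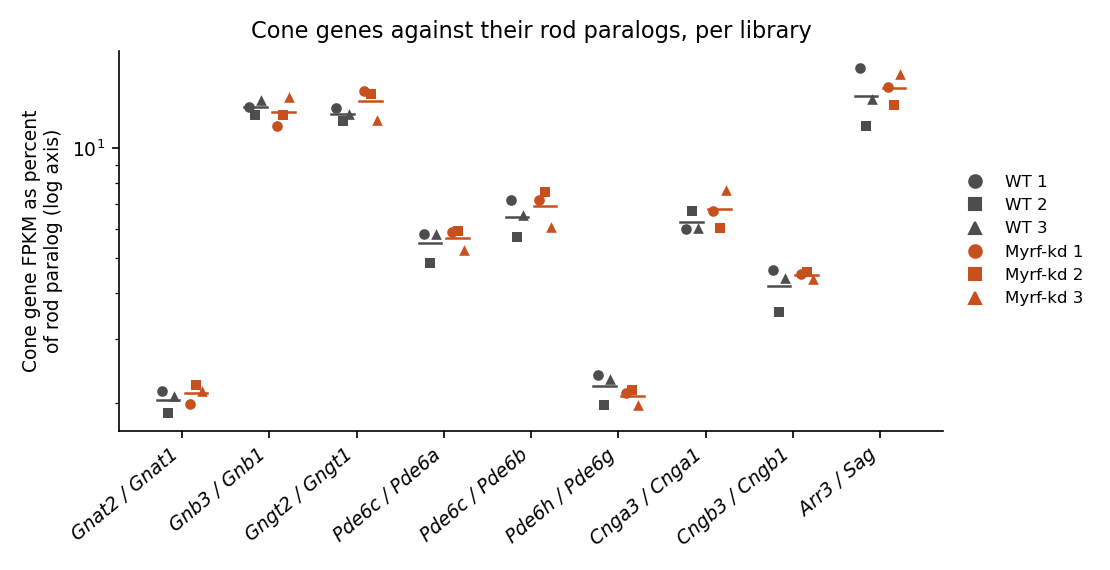
FPKM of the 8 cone genes other than the opsins as a percent of the FPKM of the rod paralog (log axis) in the WT (grey) and Myrf-kd (orange) libraries, with circles, squares and triangles for replicates 1, 2 and 3 and a line at each group's mean. In all 9 pairs the groups overlap. The WT means run from 2.04% for Gnat2 to 13.9% for Arr3 with exon-union lengths, and this order differs per principal transcript.

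Of the 9 rod genes 3 had higher and 6 lower estimates with 0 passing by edgeR (0 at an unadjusted p under 0.05) and a median log2 fold change of −0.03, against 0.00 over all genes. The rod inhibitory subunit Pde6g averaged 1242 ± 58.0 CPM in WT against 1400.2 ± 187 CPM in Myrf-kd (edgeR adjusted p = 0.706). The rod arrestin gene Sag averaged 6218 ± 382 CPM in WT against 5299.8 ± 1002 CPM in Myrf-kd (edgeR adjusted p = 0.715). The log2 fold changes of Pde6b and the rod transducin gene Gnat1 were −0.07 and −0.05 (edgeR adjusted p = 0.797 and 0.865). Of 12 genes of shut-off and calcium feedback that rods and cones share, 8 had higher and 4 lower estimates with 0 passing (0 unadjusted, median 0.02). Among them, Guca1a, which encodes the guanylate cyclase activator GCAP1, averaged 1385 CPM in WT against 1191 CPM in Myrf-kd (edgeR adjusted p = 0.685). Gucy2f, a photoreceptor guanylate cyclase gene, averaged 164 CPM in WT against 187 CPM in Myrf-kd (edgeR adjusted p = 0.695). The calcium sensor gene Rcvrn averaged 867 against 1040.1 CPM (edgeR adjusted p = 0.711), and Rgs9bp, which anchors the shut-off complex, had a log2 fold change of −0.08 (edgeR adjusted p = 0.757). Of 11 genes for chaperones and trafficking of cascade proteins, 4 had higher and 7 lower estimates with 0 passing (0 unadjusted) and with a median of −0.04. The connecting cilium gene Rpgrip1 averaged 795 CPM in WT against 953 CPM in Myrf-kd, and Prom1, a gene of outer segment discs, 1005 against 878 CPM (edgeR adjusted p = 0.695 and 0.697). Rd3, a regulator of guanylate cyclase trafficking, and Unc119, a carrier of lipid-modified transducin, had log2 fold changes of 0.11 and −0.10 (edgeR adjusted p = 0.733 and 0.735).

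Factors that set photoreceptor fate and opsin choice split evenly in direction. Of 18 such genes 16 were tested, 8 with higher and 8 with lower estimates, and 0 passed by edgeR. Of the 16, 3 had an unadjusted p under 0.05 by edgeR, against 7.48% of all genes tested. Thrb, the thyroid hormone receptor gene that mouse cones need for Opn1mw, averaged 118 CPM in WT against 110.2 CPM in Myrf-kd (edgeR adjusted p = 0.856), and its partner Rxrg, which holds down Opn1sw, 9.25 against 8.64 CPM (edgeR adjusted p = 0.865). Crx, the homeobox gene that drives many photoreceptor genes, averaged 1117 against 1023 CPM with groups that did not overlap (edgeR adjusted p = 0.697). Nrl and Nr2e3, which set the rod fate, averaged 1032 against 1149.6 CPM and 597 against 553 CPM (edgeR adjusted p = 0.761 and 0.903). Neurod1, a photoreceptor differentiation factor, averaged 299 CPM in WT against 356 CPM in Myrf-kd, Prdm1, a factor that limits bipolar fate, 17.3 against 21.6 CPM, and Samd7, which helps to silence nonrod genes in rods, 389 against 294 CPM (edgeR adjusted p = 0.666 for all 3). Mef2d, a factor that acts with Crx, had FPKM values of 30.2, 27.7 and 82.8 in Myrf-kd 1, 2 and 3 and of 82.4, 92.9 and 84.5 in WT 1, 2 and 3 (log2 fold change −0.90, edgeR adjusted p = 0.685). Myrf-kd 3 lay within the WT range and the other Myrf-kd libraries far below it. In 5 of the 16 genes the groups did not overlap, against 14.6% of all genes, and the summed list was at 1035 to 1084 FPKM in Myrf-kd and 1092 to 1123 FPKM in WT, without overlap. Without Mef2d the sums were 1013, 1008 and 1002 FPKM in Myrf-kd 1, 2 and 3 and 1029.7, 1030.3 and 1007 FPKM in WT 1, 2 and 3, and the groups overlapped.

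Markers of other cells were summed to see what else differed between the same libraries. In FPKM, bipolar cell genes summed to 223 to 293 in Myrf-kd and 233 to 259.8 in WT, amacrine genes to 113 to 121 and 116 to 118, ganglion cell genes to 301 to 326 and 307 to 328, and Mueller glia genes to 1139 to 1223 and 1147 to 1238. Their median log2 fold changes were −0.05, 0.01, −0.0030 and −0.06, with 0 members passing and all 4 sums overlapping. Of 10 retinal pigment epithelium genes tested 8 had lower estimates (median −0.28), and the sum of that list was 65.3 to 83.0 FPKM in Myrf-kd and 79.6 to 109 FPKM in WT. Cornea markers, from outside the retina, had lower estimates in all 4 tested members (median −1.96, 0 passing). Of the 4, 3 had an unadjusted p under 0.05 by edgeR, against 7.48% of all genes. In 3 of the 4 the groups did not overlap in CPM, against 14.6% of all genes. The cornea list summed to 2.18 to 3.55 FPKM in Myrf-kd and 8.13 to 11.3 FPKM in WT, without overlap. Lens markers summed to 1.202, 0.938 and 40.6 FPKM in Myrf-kd 1, 2 and 3 and to 12.8, 9.31 and 15.8 FPKM in WT 1, 2 and 3 (median 0.22 over 5 tested). No marker was at 0 in all 6 libraries, and the part of these cells in the values of the cone genes was not tested.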

How the data were processed

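Total RNA of retina was taken with Trizol, per the labels' protocols. The submitters' processing notes list Bowtie 0.12.2, HISAT2 2.0, StringTie 1.3.0 and the GRCm38 build without saying what each did. The authors deposited 1 table with an FPKM and a count per gene and library. The FPKM values deposited by the authors are per length and depth, and a gene with no count has 0.0001 there. The deposited counts are whole numbers but were treated as estimated counts, since about 4 units stand for 1 fragment, and rounding changed none. Chi-square over degrees of freedom was 18.5 or more for each pair of libraries, so none looked like a library deposited a second time.

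The 13673 genes that reached a mean FPKM of 1, and Myrf, were tested with edgeR 4.0.16 (quasi-likelihood, TMM factors, genotype as the only term), two-sided, with Benjamini-Hochberg adjustment over all 13674 and a threshold of 0.05. An SE is the log2 fold change over the root of F. Ratios within a library were tested by exact permutation. The test was tried on simulated counts of 13673 genes. It recovered 10 of 50 genes changed 1.5-fold, 27 of 50 changed 2-fold, 42 of 50 changed 3-fold and 49 of 50 changed 4-fold. It also called 10 unchanged genes, and changes under 1.5-fold were not simulated. Alternatives were other scalings and filters, limma 3.58.1, DESeq2 1.42.0, a replicate block, sex as a covariate and leaving out libraries. The cone genes, the lists and the rule for named genes (the cone genes, their rod paralogs, Myrf, 5 opsin choice factors, up to 4 genes of each pathway list by smallest p, and the 5 genes most like the cone mean) were chosen with earlier results of these data known. The TAATC letters were shortened after the windows were seen. Of the 11 planned pairs 2 are not reported here, a choice made after the values were seen, and p-values were adjusted over the other 9.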

Additional observations from a re-analysis of the deposited data

Results flagged for a closer look

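The cone phosphodiesterase gene Pde6c went opposite ways in the male and the female libraries. In the 4 male libraries both Myrf-kd values lay above both WT values, a ratio of means of 1.10 in CPM, while the female Myrf-kd library was at 0.866 of the female WT library. With 1 female library per group the difference was not tested. The female Myrf-kd library, Myrf-kd 3, also lay apart from all others on the leading principal component, at 37.1. Sex and other traits of that library cannot be told apart in Myrf-kd. Of the 13674 genes, 1962 (14.3%) showed such opposite directions with male groups that did not overlap, as did 1 of the 10 cone genes. By group means alone, Opn1mw, Gnat2, Cnga3 and Cngb3 also went opposite ways in the male and female libraries, with male groups that overlapped.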

How the results depend on the processing

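In each of 20 alternatives 0 of the 10 cone genes passed, and the log2 fold changes of Opn1sw, Opn1mw, Gngt2, Pde6h and Arr3 kept their sign. With 1 library left out, these ranged from 0.16 to 0.31 for Opn1sw, −0.20 (without Myrf-kd 3) to −0.02 (without Myrf-kd 2) for Opn1mw, 0.08 (without Myrf-kd 3) to 0.17 for Gngt2, 0.0064 (without Myrf-kd 3) to 0.12 (without Myrf-kd 2) for Pde6h, and −0.27 (without WT 2 or Myrf-kd 1) to −0.07 (without Myrf-kd 3 or WT 1) for Arr3. Gnb3 ranged from −0.05 to −0.02 (without WT 3). The log2 fold change ranged from −0.0214 to 0.0367 for Gnat2 (negative without Myrf-kd 3 or WT 2), −0.0341 to 0.136 for Pde6c (negative without Myrf-kd 1, Myrf-kd 2 or WT 2), −0.0059 to 0.168 for Cnga3 (negative without WT 1) and −0.0031 to 0.138 for Cngb3 (negative without WT 2). In male libraries only, Gnat2 was at −0.0164 and Cnga3 at −0.0010, and with quantile normalization Gnb3 was at 0.0024. The log2 opsin ratio differed by 0.19 to 0.46 in its 10 alternatives. Of the cone to rod log2 ratios, with 1 library left out, Gnb3 to Gnb1 ranged from −0.119 to 0.0122 (positive without Myrf-kd 1), Pde6c to Pde6a from −0.0315 to 0.110, Cngb3 to Cngb1 from −0.0097 to 0.181 and Arr3 to Sag from −0.0430 to 0.222 (these 3 negative without WT 2). The cause was not tested.

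The count of 6 genes passing became 2 with a mean FPKM of at least 5, 53 by DESeq2 and 22 in male libraries only, and was 9 to 16 with 1 library left out, where a group of 2 remains. Same-numbered libraries correlated at −0.046, 0.029 and 0.101 in their deviations, so the numbers were not taken as pairs. In an edgeR fit with a replicate block, 0 genes passed (703 at an unadjusted p under 0.05), the Opn1sw log2 fold change was 0.21 (edgeR adjusted p = 0.818), and the exact sign-flip p of the opsin ratio was 0.25, the smallest that 3 pairs allow.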

Other observations

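Over the 6 libraries, the tested genes whose log2 CPM followed the mean of the 10 cone genes most closely were D5Ertd579e (Pearson r = 0.995), Kti12 (0.992), Rpl30-ps1 (0.982), Rpe (0.978) and Sdccag8 (0.972). They are the top of 13674 genes over 6 points that share their depth and scaling, and are given as a description only.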
